A study of Mus musculus with 8 samples.

Results

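Mucin genes encode the large, heavily O-glycosylated proteins that cover the gut epithelium, and 8 of them were followed here across all libraries of the series. They were taken by name from the table of raw gene counts: Muc2, Muc5ac and Muc6, whose products are secreted, and Muc1, Muc3, Muc4, Muc13 and Muc20, whose products stay in the cell membrane. Of these 8 genes, 7 had a line among the 23282 lines of the table. Muc3 is not analysed here. At least 1 count was found for 6 genes, and 4 genes (Muc2, Muc1, Muc4 and Muc13) passed the filter on low counts, which kept 14567 lines.

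The samples were intestinal tissue of wild-type C57BL/6 mice in 4 groups of 2 libraries. ExDSS received oral exosomes from bovine colostrum at 1 mg per day for 3 weeks and then dextran sodium sulfate (DSS), a polymer that injures the gut epithelium, at 3% in drinking water for 6 days. PC received phosphate-buffered saline and then the same DSS. Ex received the exosomes and no DSS, and NC received saline alone. The sources used here do not give the gut segment, the age and sex of the mice, or whether the 2 libraries of a group came from different mice. The p-values therefore reflect how far these libraries lie apart, a spread that may be technical. The labels name no batch.

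Secreted mucins polymerise into the mucus gel, and in the colon that gel is built on Muc2 from goblet cells. Muc5ac and Muc6 are known as the gel-forming mucins of the gastric surface and of the gastric glands. Membrane-bound mucins carry a transmembrane segment and form the glycocalyx on the apical face of epithelial cells. Muc13 is a typical mucin of intestinal enterocytes and goblet cells, and Muc1 is found on many simple epithelia and also on other cells.

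The libraries were far from equal, and this touches every value that follows. Total counts were between 8813622 and 12308537 in 7 libraries and 1163147 in Ex 2, where Rn45s, the ribosomal RNA precursor, held 53.5% of counts. Genes with at least 1 count numbered 9825 and 11874 in ExDSS 1 and ExDSS 2, 8760 in Ex 2 and 12683 in NC 2, against 16123 to 16790 in the other 4 libraries. Genes of pancreatic acinar cells summed to 286451 CPM (counts scaled to library size) in ExDSS 1 and 113450 CPM in NC 2, against 143 to 2561 CPM elsewhere. Neutrophil genes summed to 3054 and 1979 CPM in ExDSS and to 2450 and 2227 CPM in NC, against 13.4 and 11.9 CPM in PC and 13.8 and 8.93 CPM in Ex. The saline-only libraries thus carried the neutrophil signal and the libraries labelled as DSS alone did not, which goes against what the labels would lead one to look for. The groups are called by their labels throughout. All 17 epithelial markers had a count in PC, Ex 1 and NC 1, and 14, 16, 12 and 16 of them in ExDSS 1, ExDSS 2, Ex 2 and NC 2. Their sum was 5637 and 5225 CPM in the ExDSS libraries, 5658 and 5236 CPM in PC, 5963 and 424 CPM in Ex, and 5359 and 8264 CPM in NC. Of the 424 CPM in Ex 2, 353 CPM were Ezr. A list of 8 distal colon genes had its highest sums in Ex 1 (7721 CPM), PC 1 (5273) and PC 2 (4302). Its sums were lower in NC 2 (2659 CPM), ExDSS 2 (1754), NC 1 (1232), ExDSS 1 (1032) and Ex 2 (59.6). Marker genes of the small intestine ranged from 13.4 CPM (Ex 2) to 790 CPM (PC 1). The distal colon sums thus differed between the groups compared, and the part of gut position in the mucin values was not tested.

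The DNA just before the 4 tested mucin genes is shown here for reference, as the windows in which their transcription starts. Each runs from 250 bases before to 50 bases after the annotated start, on the plus strand of GRCm38.p6, from RefSeq: Muc1 at chr3:89228806-89229105, Muc2 at chr7:141690090-141690389, Muc13 at chr16:33793787-33794086 and Muc4 at chr16:32735636-32735935. Capitals mark matches, on either strand, to a TATA box (TATAAA), a GC box (GGGCGG), a STAT motif (TTCNNNGAA) or the NF-kB consensus. For Muc13 this is 1 of 2 windows that RefSeq gives.

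Muc1: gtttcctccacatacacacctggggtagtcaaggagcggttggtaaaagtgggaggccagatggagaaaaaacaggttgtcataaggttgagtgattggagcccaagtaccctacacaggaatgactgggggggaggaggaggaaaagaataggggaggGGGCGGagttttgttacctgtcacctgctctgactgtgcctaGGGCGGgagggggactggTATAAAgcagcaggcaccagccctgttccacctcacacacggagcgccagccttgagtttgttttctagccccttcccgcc
Muc2: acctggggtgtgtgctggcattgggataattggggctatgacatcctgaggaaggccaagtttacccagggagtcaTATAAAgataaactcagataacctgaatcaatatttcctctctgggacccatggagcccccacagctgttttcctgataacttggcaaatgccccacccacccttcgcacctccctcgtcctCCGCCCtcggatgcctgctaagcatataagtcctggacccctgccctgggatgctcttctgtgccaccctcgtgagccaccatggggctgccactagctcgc
Muc13: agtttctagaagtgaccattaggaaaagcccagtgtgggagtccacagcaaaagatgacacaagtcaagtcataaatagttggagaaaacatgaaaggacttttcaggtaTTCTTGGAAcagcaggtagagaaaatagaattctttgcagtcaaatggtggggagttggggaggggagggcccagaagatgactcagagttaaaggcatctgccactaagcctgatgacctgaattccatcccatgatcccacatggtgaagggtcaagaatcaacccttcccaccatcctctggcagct
Muc4: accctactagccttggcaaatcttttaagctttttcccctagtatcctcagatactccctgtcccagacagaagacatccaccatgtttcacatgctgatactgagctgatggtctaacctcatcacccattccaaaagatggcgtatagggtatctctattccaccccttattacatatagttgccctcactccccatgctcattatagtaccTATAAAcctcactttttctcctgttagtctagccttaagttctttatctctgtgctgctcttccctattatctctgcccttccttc

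Muc1 held 2 GC boxes, from -91 to -86 and from -49 to -44 relative to the start at position 0, and a TATA box from -31 to -26. Muc2 held a GC box on the minus strand from -52 to -47 and a TATA box from -174 to -169. Muc4 held a TATA box from -36 to -31. Muc13 held neither, and had a STAT match from -140 to -132. Of 32851 promoter windows of this length, 13.6% held the TATA box, 35.7% the GC box, 8.3% the STAT motif and 4.51% the NF-kB consensus, and no 2 kinds of match overlapped in these windows. The last was absent from all 4 mucin windows, and these are letter matches only.

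Muc2 was the main secreted mucin, and its level was high in every library except Ex 2. The gene lies on chromosome 7 from 141690340 to 141754694. Its level, in CPM after edgeR's scaling, was 646 and 1492 in ExDSS, 2939 and 2039 in PC, 573 and 35.7 in Ex, and 2346 and 1386 in NC. The 2 PC libraries and NC 1 were highest and both Ex libraries lowest, and Ex 2 rested on 24 reads (95% Poisson interval 22.9 to 53.2 CPM, counting error only). By group means the order was PC (2489 ± 636 CPM), NC (1866 ± 679), ExDSS (1069 ± 598) and Ex (304 ± 380; SD, n = 2 each). PC and NC overlapped, as did NC and ExDSS, so these neighbours did not differ beyond their spread. ExDSS and Ex did not overlap. In bulk tissue, fewer goblet cells and less Muc2 RNA per goblet cell cannot be told apart.

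The other secreted mucins were at or near 0. Muc5ac, on chromosome 7 from 141789011 to 141819135, had no count in any library. A count of 0 allows up to 0.411 and 0.251 CPM in the ExDSS libraries, 0.218 and 0.235 CPM in PC, 0.306 and 4.47 CPM in Ex, and 0.199 and 0.286 CPM in NC, at 3 counts per library. Muc6, on the minus strand of the same chromosome from 141634049 to 141655308, had 1 count in PC 1 and 3 in Ex 1, none above that limit. Of 12 gastric marker genes with a line, 6 had a count in some library, and the stomach genes Gkn1 and Gif had none in any. The gastric list summed to 104 CPM in ExDSS 1 and 13.2 CPM in NC 2, all of it Tff2, and to at most 1.88 CPM elsewhere. These are the same 2 libraries that held the acinar genes, and no Muc6 or Muc5ac read came from them.

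**Figure D1:**
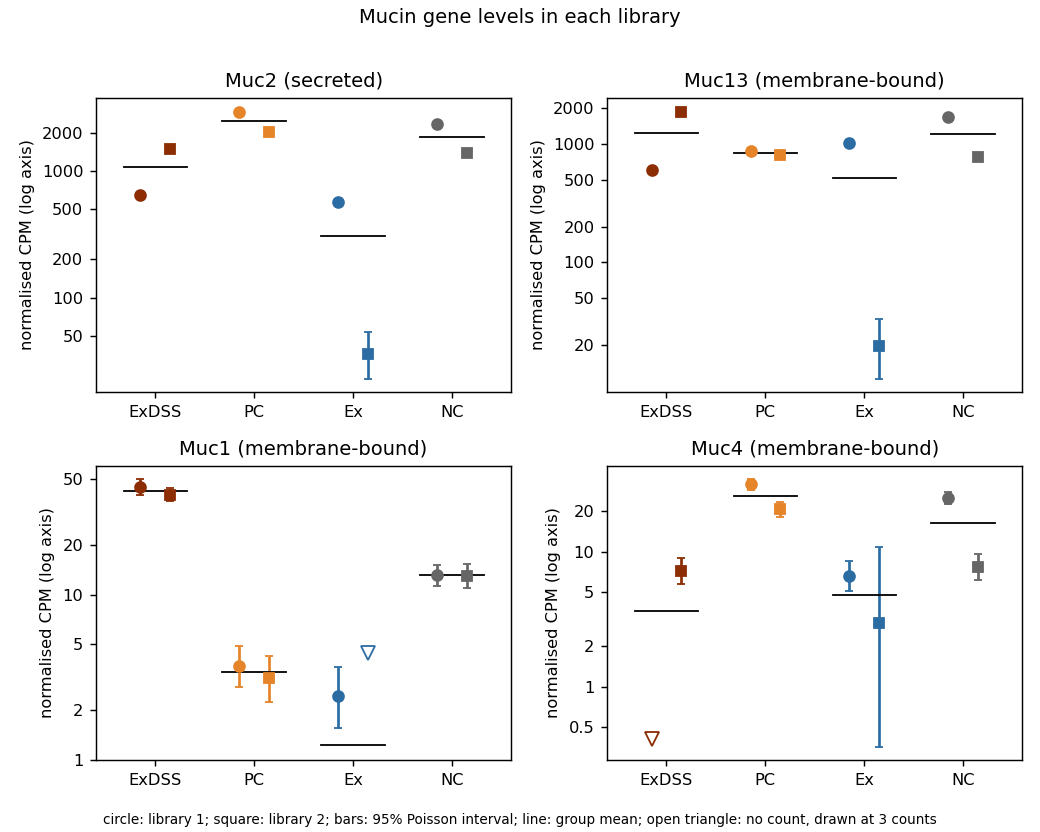
Normalised CPM (log axis) of the 4 tested mucin genes in each of the 8 libraries, by group, with 95% Poisson intervals and group means; open triangles are libraries with no count, drawn at 3 counts. Muc1 stood at 45.1 and 40.3 CPM in ExDSS, against 3.71 and 3.14 CPM in PC, while Muc2 was higher in both PC libraries than in both ExDSS libraries.

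Muc13 was the main membrane-bound mucin of those with a line, Muc3 not being among them, and had the closest group means of the 4. It lies on chromosome 16 from 33794037 to 33819927. Its level was 607 and 1877 CPM in the ExDSS libraries, 875 and 814 CPM in PC, 1015 and 19.4 CPM in Ex, and 1680 and 774 CPM in NC. ExDSS 2 and NC 1 were highest, the 2 PC libraries lay close together, and Ex 2, with 13 counts, was far below the rest. Group means ran ExDSS (1242 ± 898 CPM), NC (1227 ± 641), PC (845 ± 42.8) and Ex (517 ± 704; SD, n = 2 each), and no neighbours in that order differed beyond their spread. Muc13 gave 86.7% to 99.1% of the membrane-bound mucin counts in each library, counts that lack Muc3.

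Muc1 showed the clearest separation of groups. After edgeR's scaling its libraries lay close together within ExDSS, within PC and within NC. It lies on chromosome 3 from 89229056 to 89233381. Its level was 45.1 and 40.3 CPM in the ExDSS libraries, 3.71 and 3.14 CPM in PC, 2.45 and 0 CPM in Ex, and 13.1 and 13.1 CPM in NC. The ExDSS libraries were the highest, the NC libraries came next, and the PC and Ex libraries were lowest. By group means the order was ExDSS (42.7 ± 3.42 CPM), NC (13.1 ± 0.0508), PC (3.42 ± 0.403) and Ex (1.23 ± 1.73; SD, n = 2 each). Scaled by total counts alone, NC was at 17.4 and 11.1 CPM, so the closeness of its libraries rested on the scaling. In Ex 2 a count of 0 allows 4.47 CPM, so Ex and PC were not distinguishable at that depth. Of 4933 genes within 2-fold of Muc1's mean in the other libraries, 38.7% also had no count in Ex 2.

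Muc4, a large epithelial membrane mucin, was low and followed Muc2 more than Muc1. It lies on chromosome 16 from 32735886 to 32782390. Its level was 0 and 7.20 CPM in the ExDSS libraries, 31.3 and 20.5 CPM in PC, 6.64 and 2.98 CPM in Ex, and 24.9 and 7.72 CPM in NC. Both PC libraries were above both ExDSS and both Ex libraries, while NC reached from 7.72 CPM into the PC range. The group means were 25.9 ± 7.68 CPM in PC, 16.3 ± 12.1 in NC, 4.81 ± 2.59 in Ex and 3.60 ± 5.09 in ExDSS (SD, n = 2 each). PC overlapped NC, and Ex overlapped ExDSS. NC lay just above Ex, but the 2 counts of Ex 2 allow up to 10.8 CPM, above NC 2. Of 4834 genes within 2-fold of Muc4's mean in the other libraries, 27.5% had no count in ExDSS 1, so a count of 0 there was common at this level.

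Muc20, another membrane mucin, was barely detected. It had 5 and 3 counts in PC, 2 in Ex 1 and none elsewhere. It lies on the minus strand of chromosome 16 from 32777419 to 32797435 and overlaps the end of Muc4 by 4972 bases, 627 of them exonic in both genes in GENCODE M21. Muc4 had 1301 counts over all libraries and Muc20 had 10. The sources used here do not give whether reads were assigned by strand, so the gene of origin of reads from the shared stretch is not known.

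The first comparison asks, by the labels, what exosome pretreatment did in mice given DSS. It rests on the PC label, and PC lacked the neutrophil signal (13.4 and 11.9 CPM) that NC carried (2450 and 2227 CPM). ExDSS was not tested against NC, where Muc1 stood at 13.1 and 13.1 CPM. Muc1 was the member that differed most between ExDSS and PC, with a log2 fold change of 3.64 (12.4-fold; SE 1.82, 95% interval -0.15 to 7.42) and both ExDSS libraries above both PC libraries. Its edgeR adjusted p was 0.286. Muc2 was lower in both ExDSS libraries than in both PC libraries (log2 fold change -1.22, SE 1.54, interval -4.41 to 1.98, edgeR adjusted p = 0.801). Muc4 was also lower in both (-2.83, SE 2.03, interval -7.06 to 1.39, edgeR adjusted p = 0.541). Muc13 overlapped (0.56, SE 1.56, interval -2.69 to 3.81, edgeR adjusted p = 0.928).

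None of the 4 tested mucins passed in ExDSS against PC by edgeR's quasi-likelihood test, in which 0% of the 14567 genes were called. At an unadjusted p under 0.05 stood 0 of the 4 members and 2763 genes (19%). DESeq2 called 1 of the 4, Muc1 (DESeq2 adjusted p = 0.0263), and 10.5% of all genes. Non-overlap was common in this comparison: 18.9% of genes were higher in both ExDSS libraries and 45.4% lower in both. Over all genes the log2 fold change had its median at -0.51, so Muc1 and Muc13 stood above it and Muc2 and Muc4 below it. Epithelial genes had a median of -0.04. Without ExDSS 2 the value of Muc13 was -0.49, so its direction rested on that library. With ExDSS 1, Ex 2 and NC 2 all left out, a choice made after seeing the data, the spread rested on the PC pair alone, so no calls are given.

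The next comparison sets DSS after exosomes against exosomes alone. Muc1 had the largest difference of the members, at a log2 fold change of 4.77 (SE 1.95, interval 0.71 to 8.84) and an edgeR adjusted p of 0.236, with all ExDSS libraries above all Ex libraries. Muc2 was also higher in both ExDSS libraries (1.81, SE 1.56, interval -1.44 to 5.06, edgeR adjusted p = 0.574). Muc13 (1.26, SE 1.58) and Muc4 (-0.46, SE 1.94) overlapped, with edgeR adjusted p of 0.726 and 0.934. Muc4 turned to 0.51 without ExDSS 1 and to 0.44 without Ex 1.

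Again none of the 4 passed, with 0% of genes called by edgeR. At an unadjusted p under 0.05 stood 1 of the 4, Muc1, among 2881 genes (19.8%). DESeq2 called Muc1 (DESeq2 adjusted p = 0.011) and 14% of all genes. In this comparison 17% of genes were higher in both ExDSS libraries and 17% were lower in both. Ex 2 held the lowest value of both Muc2 and Muc13, with its 24 counts of Muc2 and 13 of Muc13. Without Ex 1, Ex 2 alone stood for the group and is assumed to vary like the other groups, so no calls are given for that fit. Without Ex 2, the log2 fold change was 0.92 for Muc2 and 0.30 for Muc13.

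As labelled, DSS without pretreatment was compared with saline through PC and NC. Muc1 was lower in both PC libraries than in both NC libraries (log2 fold change -1.93, SE 1.70, interval -5.46 to 1.60, edgeR adjusted p = 1). The other 3 overlapped, at 0.42 (SE 1.52) for Muc2, 0.67 (SE 1.90) for Muc4 and -0.54 (SE 1.56) for Muc13, each with an edgeR adjusted p of 1. None of the 4 was called by edgeR, where 0% of genes were called, and none stood at an unadjusted p under 0.05, where 363 genes (2.49%) did. DESeq2 called 0 of the 4 and 0.59% of genes. Without NC 1 the value of Muc13 was 0.14. In this comparison 31% of genes were higher in both PC libraries and 23.6% lower in both.

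Exosomes alone were set against saline, as labelled, through Ex and NC. All 4 members had lower means in Ex. Muc1 (log2 fold change -3.07, SE 1.82, interval -6.85 to 0.72), Muc2 (-2.61, SE 1.61, interval -5.96 to 0.73) and Muc4 (-1.71, SE 1.98) were lower in both Ex libraries, and Muc13 (-1.24, SE 1.58) overlapped. Their edgeR adjusted p were 0.976, 0.992, 0.999 and 0.999. None of the 4 was called or stood at an unadjusted p under 0.05 by edgeR, against 0% of genes called and 774 (5.31%) at that p. DESeq2 called 0 of the 4 and 2.31% of genes. In both Ex libraries, 22.9% of genes were lower than in both NC libraries. The epithelial median was -1.23 against -0.27 for all genes, and the part of the epithelial share in these values was not tested. Without Ex 1, the log2 fold change was -5.83 for Muc2 and -6.11 for Muc13, with Ex 2 alone standing for the group. Without Ex 2, the log2 fold change was -1.67 for Muc2 and -0.24 for Muc13.

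**Figure D2:**
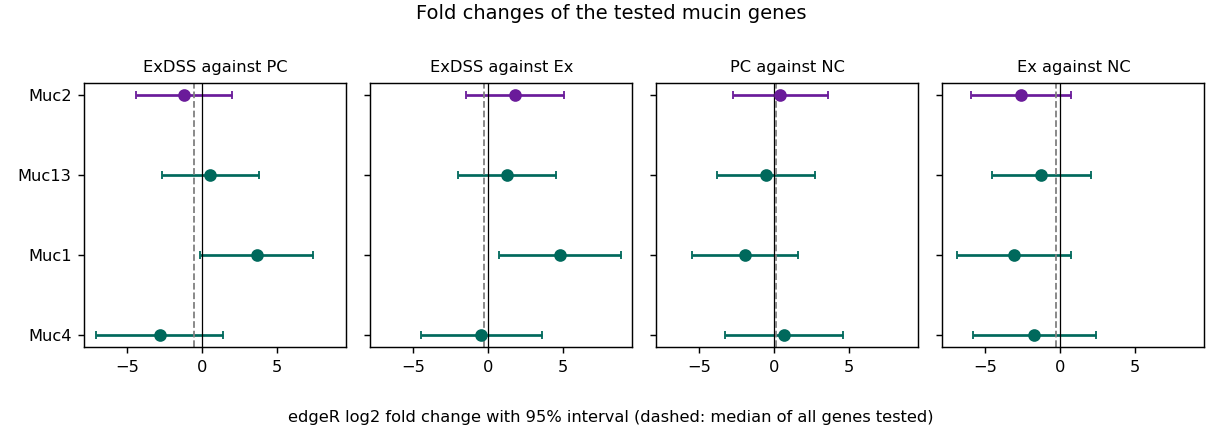
edgeR log2 fold changes (x axis) of Muc2, Muc13, Muc1 and Muc4 in the 4 comparisons, with 95% intervals; the dashed line is the median of all 14567 genes. The interval of Muc1 in ExDSS against Ex (0.71 to 8.84) is the one that does not reach 0 before adjustment, and no member passed after it.

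Whether the DSS difference depended on the exosomes was tested as an interaction, the difference ExDSS minus Ex less the difference PC minus NC. Muc1 had a log2 value of 6.70 (SE 2.57, interval 1.36 to 12.05, edgeR adjusted p = 0.203). It was 4.77 with exosomes and -1.93 without them. The sign of the -1.93, and with it the size of the 6.70, rests on the PC and NC labels, which the neutrophil genes go against. The values were 1.39 (SE 2.15) for Muc2, 1.80 (SE 2.22) for Muc13 and -1.13 (SE 2.72) for Muc4, with edgeR adjusted p from 0.727 to 0.887. None of the 4 was called by edgeR, which called 0.288% of genes (0.261% higher and 0.0275% lower), and 1 of the 4, Muc1, was among 2741 genes (18.8%) at an unadjusted p under 0.05. DESeq2 called Muc1 (DESeq2 adjusted p = 0.00743) and 11.5% of genes. Without Ex 1, where Ex 2 alone stood for the group, the log2 values were 13.69 for Muc1, 4.61 for Muc2 and 6.66 for Muc13.

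The balance of secreted and membrane-bound mucins was read within each library, where scaling plays no part. The membrane-bound counts lack Muc3, so the ratios and shares hold for the mucins with a line only. Secreted over membrane-bound counts were 0.991 and 0.775 in ExDSS, 3.23 and 2.43 in PC, 0.559 and 1.60 in Ex, and 1.37 and 1.74 in NC. Both PC libraries were above all others, and both ExDSS libraries were below both NC libraries. Secreted mucins made up 49.8% (95% exact Clopper-Pearson interval 48.8% to 50.8%) and 43.7% (43.2% to 44.2%) of mucin counts in ExDSS, and 76.3% (76.0% to 76.7%) and 70.9% (70.4% to 71.3%) in PC. They made up 35.9% (35.1% to 36.6%) and 61.5% (44.6% to 76.6%) in Ex, and 57.7% (57.3% to 58.1%) and 63.5% (62.9% to 64.2%) in NC. The interval in Ex 2 is wide because that library had 39 mucin counts in all.

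On the log2 scale the mean ratio was -0.19 ± 0.25 in ExDSS and 1.49 ± 0.29 in PC (SD, n = 2 each), a difference of -1.68, or 3.20-fold lower in ExDSS. PC was 0.86 above NC (0.63 ± 0.25), and the libraries did not overlap. Both differences rest on the PC and NC labels, which the neutrophil genes go against. Ex (-0.08 ± 1.07) overlapped ExDSS and NC. No test was made of this ratio. These values are nearly those of Muc2 over Muc13, which was 1.06 and 0.795 in ExDSS, 3.36 and 2.50 in PC, 0.564 and 1.85 in Ex, and 1.40 and 1.79 in NC. Reads of a 3' kit come from transcript ends, so counts were not divided by length. Divided by the listed transcript lengths of 6728 bases for Muc2 and 2969 for Muc13, Muc2 over Muc13 was 0.470 and 0.351 in ExDSS, 1.48 and 1.10 in PC, 0.249 and 0.815 in Ex, and 0.616 and 0.790 in NC. By counts, Muc2 was above Muc13 in every library but ExDSS 2 and Ex 1, with a wide interval in Ex 2 (0.903 to 3.95). Divided by length, Muc2 was below Muc13 in ExDSS 1, Ex 2 and both NC libraries as well. The divided values are given only for comparison, since reads of this kit come from transcript ends.

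**Figure D3:**
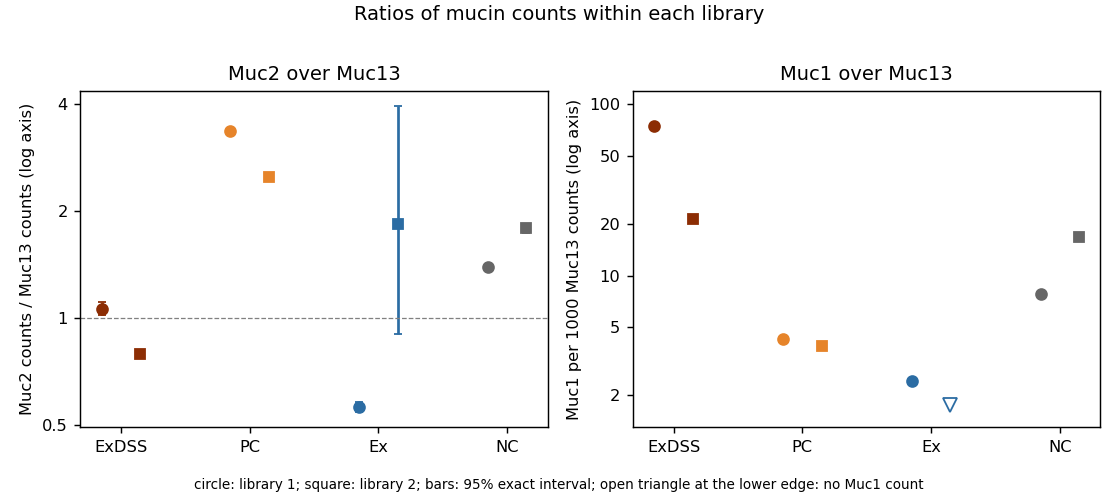
Left, Muc2 counts over Muc13 counts in each library (log axis, 95% exact intervals); right, Muc1 counts per 1000 Muc13 counts (log axis), with an open triangle at the lower edge for Ex 2, which had no Muc1 count. PC stands highest on the left (3.36 and 2.50) and ExDSS highest on the right (74.4 and 21.5).

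Among the membrane-bound mucins the make-up also differed. Muc1 counts per 1000 Muc13 counts were 74.4 and 21.5 in ExDSS, 4.24 and 3.85 in PC, 2.41 and 0 in Ex, and 7.81 and 16.9 in NC. Both ExDSS libraries were above all others, and both NC libraries were above all PC and Ex libraries. This order of groups was that of the neutrophil genes only in part: the neutrophil sums of ExDSS and NC overlapped, while their Muc1 levels did not. The part of neutrophils in the Muc1 values was not tested. Muc4 made up 0% and 0.374% of membrane-bound counts in ExDSS, 3.44% and 2.44% in PC, 0.648% and 13.3% in Ex, and 1.45% and 0.971% in NC, the 13.3% being 2 counts of 15.

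Set against the epithelium, Muc2 counts per 100 counts of the 17 epithelial genes were 11.5 and 28.6 in ExDSS, 51.9 and 38.9 in PC, 9.60 and 8.42 in Ex, and 43.8 and 16.8 in NC. Both PC libraries were above both ExDSS libraries. Both NC libraries were above both Ex libraries, but for Ex 2 this depended on the counts of Ezr. In Ex 2, whose epithelial sum was 424 CPM, the single gene Ezr gave 237 of the 285 epithelial counts. The Ex 2 values on this scale, for Muc2 close to that of Ex 1, therefore rested largely on 1 gene of the list. Muc13 on this scale was 10.8 and 35.9 in ExDSS, 15.5 and 15.6 in PC, 17.0 and 4.56 in Ex, and 31.4 and 9.37 in NC, and all groups but PC spanned a wide range. Muc1 was 0.800 and 0.771 in ExDSS, 0.0655 and 0.0599 in PC, 0.0411 and 0 in Ex, and 0.245 and 0.158 in NC. Its order of groups was the same on this scale as in CPM.

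The abundant goblet cell products were divided between ExDSS and PC, some with higher and some with lower means, and Muc2 had the lower mean in ExDSS. The 7 highest of the list, chosen by their mean level after their values were seen, follow in that order. The lectin gene Zg16 reached 8432 and 13891 CPM in the ExDSS libraries, against 3465 and 4976 CPM in the PC libraries. Clca1, a mucus-processing protease gene, was at 4292 and 22750 CPM in ExDSS, against 2186 and 4747 CPM in PC, with overlap. Tff3, a trefoil peptide gene, was at 3324 and 10622 CPM in the ExDSS libraries, against 1040 and 2730 CPM in the PC libraries. These 3 had higher means in ExDSS, and the next 3 had lower ones. Spink4, a protease inhibitor family gene, was at 1670 and 1964 CPM in ExDSS, against 2086 and 2556 CPM in PC. Klk1, a kallikrein gene, was at 1606 and 1179 CPM in ExDSS, against 1382 and 1813 CPM in PC, with overlap. Agr2, a chaperone needed for Muc2 assembly, was at 632 and 723 CPM in ExDSS, against 2241 and 1852 CPM in PC. Fcgbp, whose product binds to Muc2 in mucus, was higher again, at 905 and 3126 CPM in ExDSS, against 252 and 433 CPM in PC. None of the 7 passed the test, with edgeR adjusted p from 0.438 to 0.980. Muc2 counts per 1000 counts of the goblet list were 26.7 and 25.3 in ExDSS, 163 and 85.6 in PC, 30.3 and 124 in Ex, and 139 and 43.6 in NC. The list sum is weighted to Zg16, Clca1 and Tff3, which had higher means in ExDSS than in PC. In ExDSS 2 they held 165867, 271648 and 126831 of its 703545 counts.

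**Figure D4:**
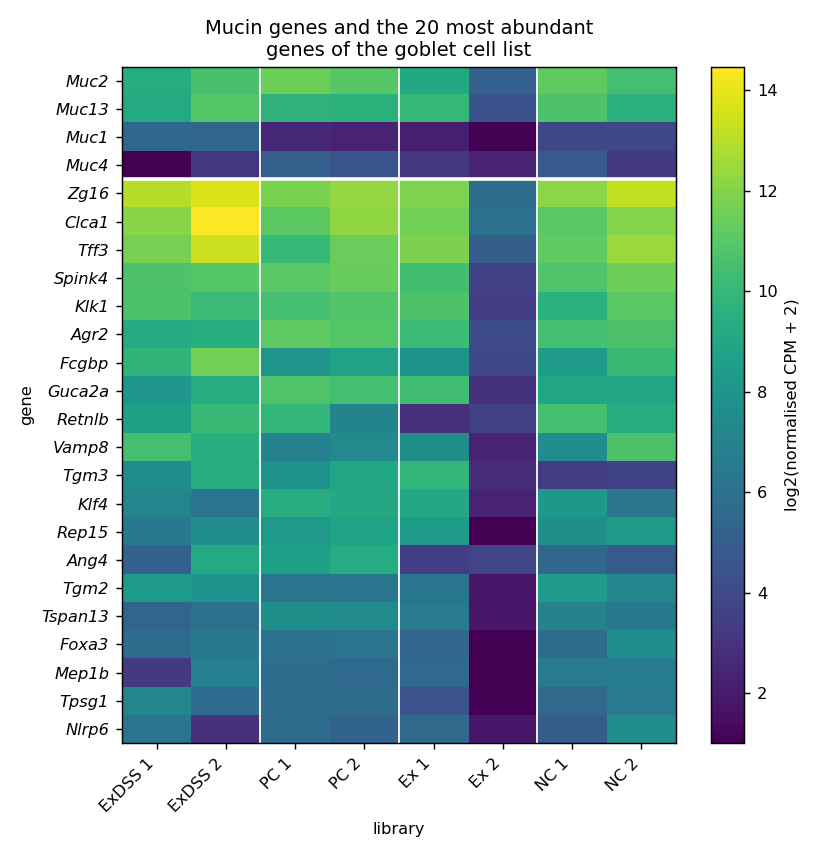
log2(normalised CPM + 2) of the 4 tested mucin genes (above the white line) and of the 20 most abundant genes of the goblet cell list (below), with 1 column per library. Zg16, Clca1 and Tff3 are brightest in ExDSS 2, the column of Ex 2 is dark throughout, and Muc1 is brightest in the ExDSS columns.

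Over 37 goblet cell genes the log2 fold change in ExDSS against PC had its median at -0.73, with 14 positive and 23 negative values. edgeR called none of them, with 5 lower and 0 higher at an unadjusted p under 0.05 (13.5% of the list, against 19% of all genes). DESeq2 called 5, namely Creb3l1, Pdia5, Foxa1, Gfi1 and Sytl4 (13.5%, against 10.5% of all genes). Creb3l1, which controls secretory pathway genes, stood at 1.23 and 5.19 CPM in ExDSS, against 139 and 108 CPM in PC (edgeR adjusted p = 0.228). Pdia5, a disulfide isomerase gene, had 0 and 1 counts in ExDSS and 26.8 and 18.4 CPM in PC, and Foxa1, a goblet cell transcription factor, had 1 count in each ExDSS library and 25.8 and 18.5 CPM in PC. Both had an edgeR adjusted p of 0.228. Against Ex, where Pdia5 was at 14.1 and 40.2 CPM, its edgeR adjusted p was 0.207. The lower number of genes detected in the ExDSS libraries moves with these values, and its part in them was not tested.

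In the other comparisons edgeR called none of the list either. In ExDSS against Ex, 5 higher and 5 lower genes stood at an unadjusted p under 0.05 (27% of the list, against 19.8% of all genes), and DESeq2 called 8 (21.6%, against 14%). In PC against NC, 2 higher genes stood there (5.41%, against 2.49%), and DESeq2 called 0 (against 0.59%). In Ex against NC, 1 higher and 2 lower genes stood there (8.11%, against 5.31%), and DESeq2 called 3 (8.11%, against 2.31%). Its median was 0.38 in ExDSS against Ex (22 positive, 15 negative), 0.34 in PC against NC (22 and 15) and -1.21 in Ex against NC (8 and 29), beside medians of -0.29, 0.10 and -0.27 for all genes. Retnlb, a goblet cell defence protein gene, was at 407 and 1068 CPM in ExDSS and 5.41 and 10.4 CPM in Ex (log2 fold change 6.58, SE 1.81, edgeR adjusted p = 0.197). Against NC, with 1468 and 644 CPM, it was lower in both Ex libraries (-7.10, SE 1.85, edgeR adjusted p = 0.676). Spdef, a regulator of goblet cell maturation, was at 5.11 and 1.49 CPM in Ex and 20.7 and 164 CPM in NC (-4.67, SE 1.60, edgeR adjusted p = 0.930). Tgm3, a transglutaminase that cross-links Muc2, was at 230 and 505 CPM in PC and 8.29 and 10.9 CPM in NC (5.26, SE 1.86, edgeR adjusted p = 1), and at 945 and 4.47 CPM in Ex. Ang4, an antimicrobial ribonuclease gene, was at 399 and 648 CPM in PC and 41.5 and 26.2 CPM in NC (3.95, SE 1.52, edgeR adjusted p = 1), and at 33.2 and 600 CPM in ExDSS against 9.39 and 11.9 CPM in Ex (edgeR adjusted p = 0.236). Vamp8, a granule fusion gene, was at 123 and 167 CPM in PC and 188 and 1647 CPM in NC (edgeR adjusted p = 1).

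Genes that build the O-glycans of mucins had none of 31 tested members called by edgeR in any comparison of groups. In ExDSS against PC, 4 lower genes stood at an unadjusted p under 0.05 (12.9% of the list, against 19% of all genes), and DESeq2 called 4 (12.9%, against 10.5%). In ExDSS against Ex, 1 higher and 2 lower genes stood there (9.68%, against 19.8%), and DESeq2 called 3 (9.68%, against 14%). In PC against NC it was 0 genes (against 2.49%), and DESeq2 called 0 (against 0.59%). In Ex against NC, 4 lower genes stood there (12.9%, against 5.31%), and DESeq2 called 1 (3.23%, against 2.31%). The list had its median at -0.89 in ExDSS against PC (11 positive, 20 negative), -0.08 in ExDSS against Ex (15 and 16), -0.13 in PC against NC (15 and 16) and -1.24 in Ex against NC (9 and 22). With genes at 0 in a whole group set at their limit, the ExDSS against Ex median was 0 and the Ex against NC median -0.94. St3gal6, a sialyltransferase gene, had no count in ExDSS, and was at 55.0 and 108 CPM in PC (edgeR adjusted p = 0.228), at 139 and 0 CPM in Ex (ExDSS against Ex, edgeR adjusted p = 0.147) and at 15.4 and 1.62 CPM in NC (PC against NC, edgeR adjusted p = 1). B3gnt6, which makes the core 3 O-glycan of colonic mucin, had no count in ExDSS and was at 19.6 and 4.94 CPM in PC (edgeR adjusted p = 0.228). St6galnac2, another sialyltransferase gene, had 1 and 0 counts in ExDSS and 16.6 and 16.8 CPM in PC (edgeR adjusted p = 0.228), and Ex had 13.3 and 0 CPM (ExDSS against Ex, edgeR adjusted p = 0.236). Galnt12, which starts O-glycan chains, was at 122 and 94.4 CPM in ExDSS and 20.9 and 0 CPM in Ex (edgeR adjusted p = 0.245), and NC had 99.4 and 533 CPM (Ex against NC, edgeR adjusted p = 0.930). PC had 78.7 and 52.3 CPM of Galnt12, below both NC libraries (edgeR adjusted p = 1). Its relative Galnt6 was at 32.5 and 31.3 CPM in PC, 24.1 and 1.49 CPM in Ex and 34.1 and 276 CPM in NC, with an edgeR adjusted p of 1 for PC and 0.930 for Ex against NC. B4galnt2, which completes the Sda glycan of colonic mucin, was at 91.8 and 2.98 CPM in Ex and 283 and 945 CPM in NC (edgeR adjusted p = 0.930).

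Other mucin-type genes gave little. Of 16 listed, 9 had a line and 4 were tested, none of them called by edgeR in any comparison of groups. Mcam was the 1 gene at an unadjusted p under 0.05, in ExDSS against PC and against Ex, and the 1 gene called by DESeq2. Muc5b and Muc19, which encode gel-forming mucins, and Prol1 had no count, Muc15 had 8 counts in Ex 1 and 1 in Ex 2, and Mucl1 had 3 counts in Ex 1. Emcn, a sialomucin gene of endothelial cells, was at 35.1 and 23.3 CPM in the ExDSS libraries, 7.27 and 9.81 CPM in PC, 7.76 and 0 CPM in Ex, and 9.02 and 9.24 CPM in NC (ExDSS against PC, edgeR adjusted p = 0.730). Its ExDSS libraries were above all others, as with Muc1. Mcam, another endothelial gene, had no count in ExDSS or Ex 2 and was at 25.8 and 27.3 CPM in PC (edgeR adjusted p = 0.228), 22.9 CPM in Ex 1 and 23.2 and 2.86 CPM in NC. Podxl, a podocalyxin gene, and Cd164, a sialomucin gene of many cell types, had an edgeR adjusted p of at least 0.736 in every comparison of groups.

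The genes closest to each member over the 8 libraries were named by the Pearson correlation of log2 CPM among 10399 genes with a mean of at least 5 CPM. For Muc1 they were Egr1 (r = 0.994), an immediate early transcription factor gene, Hspa2 (0.992) and Dmkn (0.988). For Muc2 they were D17H6S56E-5 (0.978), the sialyltransferase gene St3gal3 (0.975) and Cd164 (0.975). For Muc13 they were Pnp (0.997), Sptlc1 (0.997) and Tmem50a (0.996), and for Muc4 they were the DNA damage kinase gene Atm (0.979), Wdsub1 (0.979) and Atp6v0a2 (0.975). The points share depth and the low library Ex 2, and no p is given. Between members over 8 libraries, r was 0.915 (Spearman's rho 0.524) for Muc2 and Muc13 and 0.324 without Ex 2, so that likeness rested on that library. For Muc2 and Muc4 r was 0.477 (rho 0.905), and 0.766 without Ex 2. For Muc1 and Muc2 r was 0.672 (rho 0.333), and -0.194 without Ex 2.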

How the data were processed

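Libraries were made from total RNA with a QuantSeq 3' mRNA kit, per the labels' protocols. The authors deposited raw counts, whole numbers for each gene line, and the submitters' processing notes name Bowtie2, bedtools, edgeR and the build mm9 without versions. The positions in the table were checked against GENCODE M21: 22071 of the 22139 lines with a matching name (99.69%) lay over that GRCm38 gene, and positions are therefore given as GRCm38. Transcript lengths are as the authors deposited them. Depth was 1163147 to 12308537 counts per library.

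Genes were tested on the counts as deposited with edgeR 4.0.16 in R 4.3.3 (TMM, filterByExpr with a minimum count of 10 and a total of 15, robust quasi-likelihood F test), in 1 model of 4 groups over 8 libraries with 4 residual degrees of freedom, and p-values were adjusted by Benjamini-Hochberg over all 14567 genes at a threshold of 0.05. The SE is the absolute log2 fold change over the square root of F, and intervals use edgeR's total degrees of freedom (21.2 for the mucins). CPM are scaled by total and TMM factor. DESeq2 1.42.0 was the alternative tool, over the same genes. It gave no adjusted p to 565 to 5084 genes per comparison. Poisson and binomial intervals and the limits of a 0 count cover counting error only. All mucins of the list are given in every library, and from each partner list the 3 genes with the smallest p per comparison of groups. The 7 most abundant goblet genes were added after their values were seen. The members and lists were chosen with earlier results of these data known. The alternatives of the closing section were RLE and total-count scaling, filters, tools, libraries left out and the replicate block.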

Additional observations from a re-analysis of the deposited data

Results flagged for a closer look

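As labelled, Muc1 differed between the groups in opposite directions. Both ExDSS libraries (45.1 and 40.3 CPM) were above both Ex libraries (2.45 and 0 CPM), while both PC libraries (3.71 and 3.14 CPM) were below both NC libraries (13.1 and 13.1 CPM). The difference of the 2 differences was 6.70 on the log2 scale (SE 2.57) and did not pass (edgeR adjusted p = 0.203), while DESeq2 gave an adjusted p of 0.00743. Across alternatives with all 8 libraries or with 1 left out, its log2 value was positive throughout and ranged between 6.03 and 13.69 with 1 library left out, the highest being set by the 0 counts of Ex 2 alone. Neutrophil genes were summed at 3054 and 1979 CPM in ExDSS and at 2450 and 2227 CPM in NC, against 13.4 and 11.9 CPM in PC and 13.8 and 8.93 CPM in Ex, and their part in the Muc1 values was not tested. The opposite directions rest on the PC and NC labels, which these neutrophil sums go against, and with those labels exchanged Muc1 would be higher in the DSS group of both pairs.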

How the results depend on the processing

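All 4 mucins kept the same direction in each comparison under RLE factors, total counts alone, totals without Rn45s and the acinar genes, both filters, DESeq2, the fit to the groups compared and the replicate block. The exceptions came with 1 library left out. Muc4 in ExDSS against Ex ranged from -8.65 (ExDSS 1 alone, at 0 counts) to 0.51 without ExDSS 1, with 0.44 without Ex 1. Muc13 ranged from -0.49 (without ExDSS 2) to 1.14 in ExDSS against PC, and from -0.99 to 0.14 (without NC 1) in PC against NC. Counts of called genes depended on the tool and filter, and the cause was not tested. In the order ExDSS against PC, ExDSS against Ex, PC against NC, Ex against NC and the interaction (0, 0, 0, 0 and 42 by edgeR), DESeq2 called 1526, 2046, 86, 337 and 1672 genes and 1, 1, 0, 0 and 1 mucins, and edgeR with no filter on low counts called 132, 223, 45, 55 and 350 genes. For the interaction, RLE factors gave 67, total counts alone 6 and the stricter filter 23.

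With 1 library left out, genes called ranged over 0 to 6, 0 to 1883, 0 to 4, 0 to 1596 and 0 to 1663, and mucins over 0 to 3 in ExDSS against Ex and in the interaction, 0 to 2 in Ex against NC and 0 elsewhere. Without ExDSS 1, Ex 2 and NC 2 together, added after seeing the data, 10719, 9839, 3910, 3603 and 9646 genes and 3, 2, 2, 3 and 2 mucins were called, and Muc4 turned to 0.0890 in ExDSS against Ex and 0.0194 in the interaction. That fit has 1 residual degree of freedom, from the PC pair, so no calls are given for it. The replicate numbers share no named source, and deviations of same-numbered libraries correlated by -0.06 to 0.05 between the groups compared. With the replicate block 41 genes were called in ExDSS against PC, 28 in ExDSS against Ex and 161 in the interaction, and no mucin.

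The log2 ratio of secreted to membrane-bound mucins in ExDSS against PC was -0.57 as a mean over genes of log2(CPM + 2) and -1.99 without Muc13, and -1.88 to -1.47 with 1 library left out. In PC against NC it was 0.39 and 0.39 in those settings, 0.66 to 1.06 with 1 library left out, and 1.24 and 0.48 within replicate numbers 1 and 2 under the block. It was -0.87 to 0.65 in ExDSS against Ex and -1.46 to 0.05 in Ex against NC with 1 library left out, and 0.46 as a mean over genes in Ex against NC. The depth of Ex 2 (39 mucin counts) limits every value of the Ex group.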
